A study of Homo sapiens with 4 samples.

Results

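The peaks described here are those whose centre the authors' annotation places on a repeat element of an assembled human chromosome, in a map of FLAG-tagged ZNF416 in IMR90 cells. They were chosen by that annotation alone, not by their strength, and they numbered 210 of 1080 peaks on assembled chromosomes and of 1386 peaks in all. ZNF416 belongs to the KRAB zinc finger proteins, and IMR90 is a line of cultured human lung fibroblasts. The line expressed the tagged protein from a lentiviral vector after puromycin selection, and FLAG-bound chromatin was pulled down and sequenced (chromatin immunoprecipitation, ChIP). There were 2 ChIP libraries, labelled as biological replicates, and 2 libraries of input chromatin, with the same culture described for all. Input is chromatin without the pull-down, and a FLAG pull-down from cells without the tag was not analysed here. The tagged protein is made in addition to the cells' own ZNF416. The libraries enter only through 1 list of peaks on the hg19 build, which leaves every value without a replicate error, and no test of a difference was made. Peaks are not replicates of the experiment, and intervals below cover counting error only. The identity of the cells was not checked against marker genes, since a peak list holds no expression values.

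About the repeats, some background helps. Alu and MIR are short interspersed elements (SINEs), copied through RNA by enzymes of the long elements (LINEs), of which L1 and the much older L2 are the main families. Long terminal repeats (LTRs) are what remains of endogenous retroviruses such as ERV1, ERVL and the related MaLR group, and DNA transposons such as the hAT families moved without an RNA step. Many KRAB zinc finger proteins bind retroelements and recruit the co-repressor TRIM28, and others bind at promoters. In this annotation a repeat is named only where the peak centre lies in an intron or between genes: of the peaks annotated to promoters, exons, untranslated regions or gene ends, 0 carried a repeat name. Repeat peaks are therefore compared with the 508 intronic and intergenic peaks of the same chromosomes whose centre lay on neither a repeat nor a CpG island, called plain peaks below. The background given beside a share is the same share over all 783 intronic and intergenic peaks, which are the 210 repeat peaks, the plain peaks and 65 peaks on CpG islands. Counts per family are given as such, because the length of genome that each repeat covers was not analysed here.

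The only repeats whose letters the list itself gives are the simple repeats, short units copied head to tail. They are shown because units that look different can be the same sequence read on the other strand. Of 15 simple repeat peaks, 5 lay on the unit GGCTG and 2 on CAGCC, which is its reverse complement, so 7 lay on 1 repeat. The 4 peaks on dinucleotides, 3 on TG and 1 on CA, were likewise 1 repeat. Written out as 4 copies each, GGCTG and CAGCC read as follows, where capitals mark the first CTGGGC, or its complement GCCCAG, found in each tandem:
(GGCTG)n, 5 peaks: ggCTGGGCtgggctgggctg
(CAGCC)n, 2 peaks: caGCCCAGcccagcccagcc
The letters CTGGGC stand at the core of the ZNF416 entry in HOMER's collection of known motifs, where the next base is an A. This is background knowledge and was not checked against that collection here. The longer form CTGGGCA was found on neither strand of these tandems. As a rough measure of how common such short matches are, 36.8% of 35116 RefSeq promoter windows of 300 bases (GRCh38.p14) held CTGGGC on either strand. For CTGGGCA it was 8.95%. A window is far longer than a tandem of 4 copies, so these shares give no expected rate for the tandems. The letters were also chosen after the units were seen. A match of letters is a description of these units, not a binding site. The tandems are written from the unit, and the sequence in the cell can differ from it.

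The 7 peaks on the shared GGCTG unit lay at 5 separate places. The strongest, with a score of 91, was 311 bp wide and lay in intron 12 of BRSK2, a protein kinase gene (chromosome 11, 1467441 to 1467751), with MOB2 as the nearest gene. The score is the authors' whole number per peak, on a scale that is not stated. In the whole list it runs from 13 to 355. In CFAP74, a cilia gene, intron 10 was the place of a peak scored 82 (chromosome 1, 1900492 to 1900874). Intron 14 of SORCS2, which encodes a sorting receptor, held 3 peaks within 763 bp of chromosome 4 (7707742 to 7708504), with scores of 62, 51 and 56. A peak of score 50 lay 4381 bp downstream of the start of TNFRSF18, a receptor gene of T cells (chromosome 1, 1137380 to 1137802). The weakest, of score 35, lay 49743 bp upstream of the glypican gene GPC1 (chromosome 2, 241325255 to 241325420). TNFRSF18, GPC1, IRF1, DPY19L1, ZNF251, ZNF43 and ZNF592 were chosen for naming after their values were seen, as were the host genes of introns. A second peak, on no repeat, lay 67 bp from the one near TNFRSF18.

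Widths in this set ran from 122 to 423 bp, with a median of 311 bp. The other 8 simple repeat peaks had a median width of 141.5 bp (107 to 418) and a highest width of 418 bp. The 2 intervals overlap, and the difference was not tested. Of the 7 peaks, 3 come from the stretch of 763 bp in SORCS2. The strongest simple repeat peak of all, with a score of 135, lay on the trinucleotide CTA, 459058 bp upstream of the non-coding RNA gene LINC01249.

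By class, SINEs held 86 of the 210 peaks, or 41.0% (exact Clopper-Pearson 95% interval 34.2 to 47.9). LTRs held 72, or 34.3% (27.9 to 41.1), and LINEs held 26, or 12.4% (8.25 to 17.6). Simple repeats held the 15 peaks above, DNA transposons 7, low complexity sequence 2 and the composite element SVA 2. Satellite repeats held 0. Alu was the most frequent family with 66 peaks, and it was followed by ERVL with 39, ERVL-MaLR with 23 and MIR with 20. The peaks carried 93 different repeat names, and 58 of these names had a single peak. They lay on 23 chromosomes and had 199 different nearest genes.

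**Figure D1:**
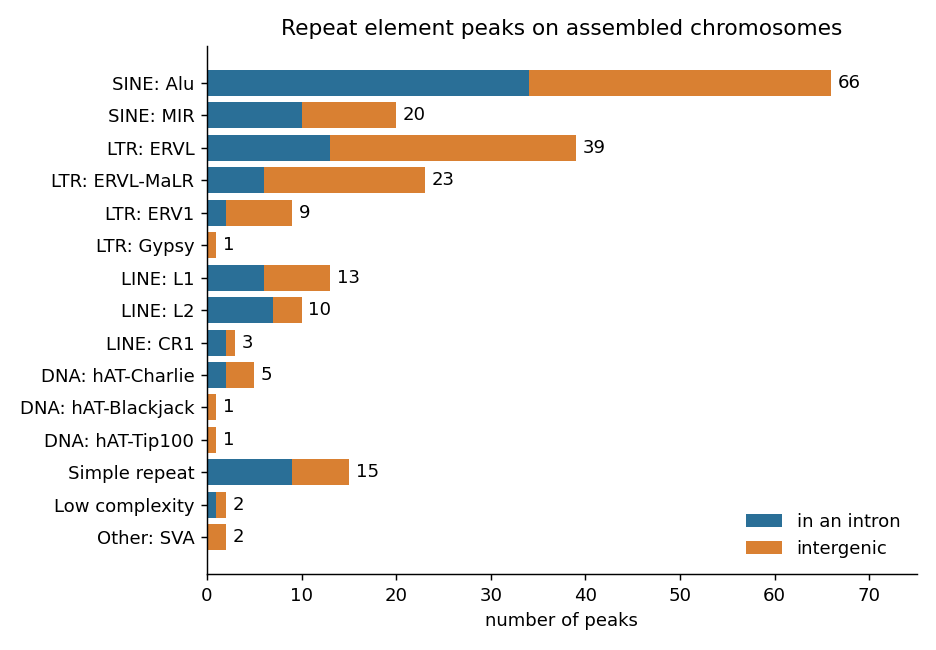
Number of repeat element peaks on assembled chromosomes (x axis) by repeat class and family (y axis), split by colour into peaks in introns and between genes, with the total printed beside each bar. Alu has 66 peaks, 34 of them in introns, while 26 of the 39 ERVL peaks are intergenic.

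The scores of the 66 Alu peaks ran from 15 to 254 with a median of 63.5 (order-statistic 95% interval 50 to 74), and they included 3 of the 4 highest scores among repeat peaks. The upper quartile was 89 in Alu and 124 over the 10 L2 peaks. The highest, of score 254, was an AluJb peak in intron 1 of MYOF, which encodes myoferlin, a protein of membrane repair (chromosome 10, 95226338 to 95226709). An AluSg peak of score 246 and 594 bp width lay in intron 4 of the non-coding RNA gene LINC00963 (chromosome 9, 132272055 to 132272648). An AluJb peak of score 204 lay 2524 bp upstream of SMURF2, which encodes a ubiquitin ligase that limits TGF-beta signalling (chromosome 17, 62660883 to 62661016). Intron 36 of NF1, the gene of the RAS regulator neurofibromin, held an AluSc8 peak of score 157, with OMG, a gene that lies inside NF1, as the nearest start. A further AluJb peak, of score 150, lay in intron 1 of RASSF3, nearest to MIR548Z.

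Within Alu, the older J branch held 35 peaks, the S branch 25 and the youngest branch, Y, 5. The remaining peak lay on FAM, an element that the annotation places in the Alu family, 390287 bp from the start of the ETS factor gene ETV1. The median score was 68 in AluJ (50 to 75), 54 in AluS (35 to 89) and 61 over the 5 AluY peaks, whose scores were 104, 100, 61, 37 and 32. The intervals of AluJ and AluS overlap, so no order of the branches is given. The single most frequent names were AluJb with 15 peaks, AluJo with 12, AluJr with 8 and AluSz6 with 7. AluJb had a median score of 69 (56 to 100) and AluJo one of 58 (31 to 85).

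**Figure D2:**
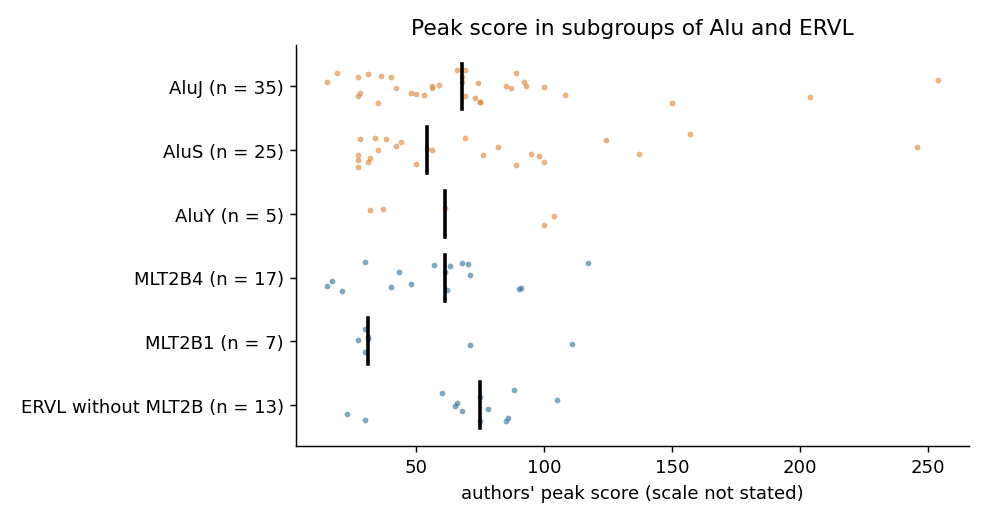
Authors' peak score (x axis, scale not stated) of single peaks (points) in the AluJ, AluS and AluY branches and in MLT2B4, MLT2B1 and ERVL elements outside MLT2B, with black bars at the medians. The single peaks on MLT2B2 and MLT2B3 are not shown. The medians of AluJ and AluS are 68 and 54 with broad overlap, and 5 of the 7 MLT2B1 peaks lie at or below a score of 31.

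MIR elements are far older than Alu. Their 20 peaks had a median score of 55.5 (40 to 69). By the deposited gene type, all 20 had a protein-coding gene as the nearest start, with a background of 74.2%. For a MIR3 peak of score 29, however, a RefSeq gene table gives that gene as a long non-coding RNA gene. The strongest MIR peak, of score 161, lay on MIR3 in intron 1 of SYT16, a synaptotagmin gene (chromosome 14, 62401279 to 62401661). MIRb peaks lay in intron 3 of CLEC16A, an autophagy regulator gene, with a score of 94, and in intron 1 of HTRA1, a secreted serine protease gene, with a score of 44. A MIR3 peak of score 68 lay in intron 1 of RAB27A, a gene of vesicle secretion, and one of score 57 in intron 1 of ZBTB7A, a transcription factor gene. MIRc peaks lay 59728 bp upstream of the growth factor gene IGF1, with a score of 60, and 19679 bp upstream of the tubulin gene TUBB6, with a score of 65. The intervals of the Alu and MIR medians overlap.

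Of the LTR peaks, 21 of 72, or 29.2% (19.0 to 41.1), lay in introns, against 44 of 86 for SINEs, or 51.2% (40.1 to 62.1), and a background of 57.7%. Beyond 1 kb of a start, where all repeat peaks lay, 366 of 697 intronic and intergenic peaks were in introns. The LTR median score was 59 (49 to 68). The strongest LTR peak, of score 197, lay on MLT1F, a MaLR element, 5918 bp upstream of the antisense RNA gene HECTD2-AS1 (chromosome 10, 93377061 to 93377209). MLT1F also held the second of the MaLR peaks, of score 145, 44716 bp upstream of the tetraspanin gene TSPAN13. An MLT1G peak of score 138 lay 1354 bp upstream of MCC, a gene named for colorectal cancer (chromosome 5, 112825366 to 112825643), and a THE1A peak of score 115 lay nearest to DIPK2A. Among 9 ERV1 peaks the strongest, of score 166, lay on LTR78B, 19709 bp upstream of GNA12, the gene of a G protein subunit (chromosome 7, 2903587 to 2903715). The 2 peaks on LTR76 lay 81 bp apart upstream of the antiviral gene IFITM3, at 1018 and 1491 bp, with scores of 31 and 86. The former is the closest of all 210 peaks to a start site.

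Among ERVL elements, MLT2B names held 26 of the 39 peaks, with 17 on MLT2B4, 7 on MLT2B1 and 1 each on MLT2B2 and MLT2B3. MLT2B4 peaks were spread over 10 chromosomes and ran from a score of 15 near IRF1 to 117 near LINC00355. Other strong ones were those nearest to OSTM1 (score 91), MIR6078 (90) and CEP85L (71), the last in intron 2 of that gene. MLT2B1 peaks had a median score of 31 (27 to 111), against 61 (40 to 70) for MLT2B4. The high MLT2B1 peaks were those near SPRY1, with a score of 111, and IPO5, with 71, while the other 5 scored 27 to 31.

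The 13 ERVL peaks on other elements had a median width of 123 bp (115 to 155) and a median score of 75 (60 to 86), against 176 bp (136 to 240) and 52.5 (31 to 68) for MLT2B. None of the 13 was wider than 200 bp, while 10 of the 26 MLT2B peaks were, and the background was 24.5%. The intervals of both pairs of medians overlap, and this contrast was chosen after its values were seen and was not tested. A pair of the 13 lay on MER76 in related genes, with a score of 105 in intron 5 of the pseudogene DPY19L1P1 and of 78 in intron 6 of DPY19L1. Reads can match both copies of such a pair, so these values are uncertain, as are those of young repeats such as AluY and SVA. The treatment of reads with several matches is not stated.

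**Figure D3:**
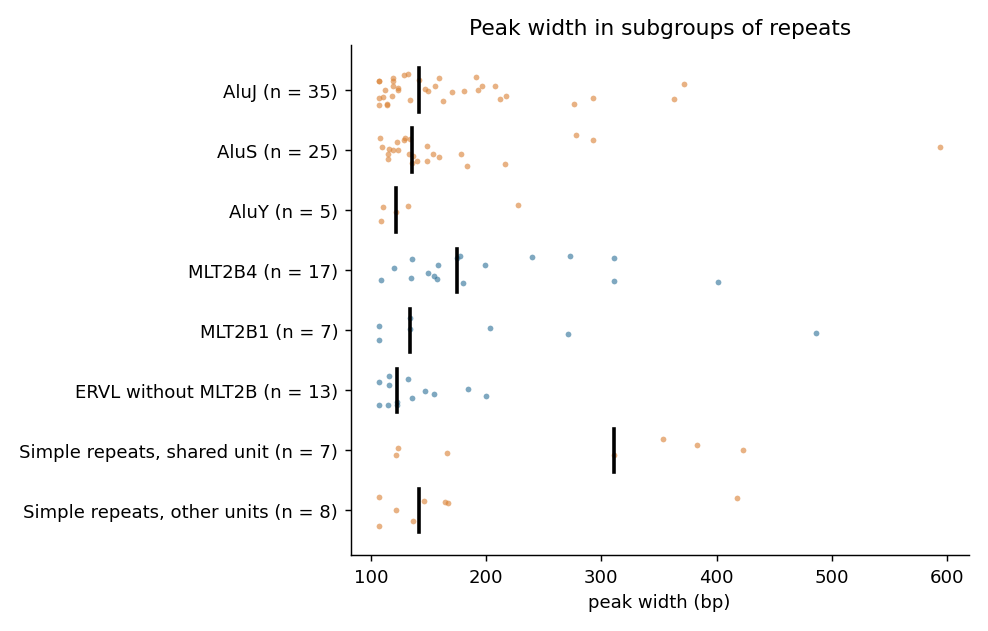
Peak width in bp (x axis) of single peaks (points) in branches of Alu, in MLT2B4, MLT2B1 and ERVL elements outside MLT2B, and in simple repeats with the shared unit or other units, with black bars at the medians. The single peaks on MLT2B2 and MLT2B3 are not shown. The 7 peaks on the shared unit have a median of 311 bp, and none of the 13 ERVL peaks outside MLT2B exceeds 200 bp.

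LINE peaks were few. L1 held 13 peaks with a median distance of 69837 bp from the nearest start site (22658 to 186664). Of these, 5 lay beyond 100 kb, or 38.5% (13.9 to 68.4), where the background was 8.81%. These 5 include 2 neighbouring L1PA17 peaks near SMIM30, at 149795 and 149986 bp. L2 held 10 peaks with a median distance of 12153 bp (4183 to 33674), 0 beyond 100 kb and 7 in introns. The intervals of the 2 medians overlap. The median score was 45 for L1 (35 to 80) and 75 for L2 (46 to 127), with overlapping intervals. The strongest L2 peak, of score 202, was also the widest of all repeat peaks at 616 bp, and it lay in intron 3 of SYT12, a synaptotagmin gene (chromosome 11, 66800484 to 66801099). L2 peaks also lay in intron 1 of the ephrin receptor gene EPHB2, nearest to MIR4684, with a score of 127, and in intron 2 of the glucose transporter gene SLC2A1, with a score of 126. The intron 2 peak of PARD6B, a cell polarity gene, scored 118. The strongest L1 peak, of score 167, lay on L1MD3, 22658 bp from LOC729815 (chromosome 10, 81247925 to 81248235). The 3 CR1 peaks scored from 28 to 67, the highest being nearest to NAT10 and in intron 3 of ABTB2.

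DNA transposons held few peaks, all of the hAT group. The strongest of the 7, of score 141, lay on MER81, 76534 bp upstream of the receptor gene LRP12. Of the 7, 0 were wider than 200 bp, or 0% (0 to 41.0), with a background of 24.5%. The 5 hAT-Charlie peaks scored from 50 to 89. The 2 SVA peaks lay 446 bp apart nearest to HS6ST1, a heparan sulfate enzyme gene, with scores of 38 and 22. The C-rich stretch upstream of the transcription factor gene SP1 held a peak of score 144, at 8562 bp from the start.

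Repeat peaks and plain peaks had medians of score and of width with overlapping intervals. For repeat peaks the median score was 57.5 (53 to 65), against 59 (56 to 64) for the 508 plain peaks. A score of at least 60, the median of all chromosome peaks, was reached by 102 of 210, or 48.6%, with a background of 49.3%. The median width was 145 bp (134 to 154), against 138.5 bp (131 to 146). Peaks wider than 200 bp made up 25.7% of repeat peaks, with a background of 24.5%, and peaks at the smallest width of the list, 107 bp, made up 7.62% against 9.71%. Among the 100 strongest intronic and intergenic peaks, 25 lay on a repeat, against 26.8% of all 783. Across peaks, score and width were weakly related (Spearman's rank correlation 0.20 over 210 repeat peaks and 0.18 over the plain peaks), given as a description, since both come from the same peak call.

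**Figure D4:**
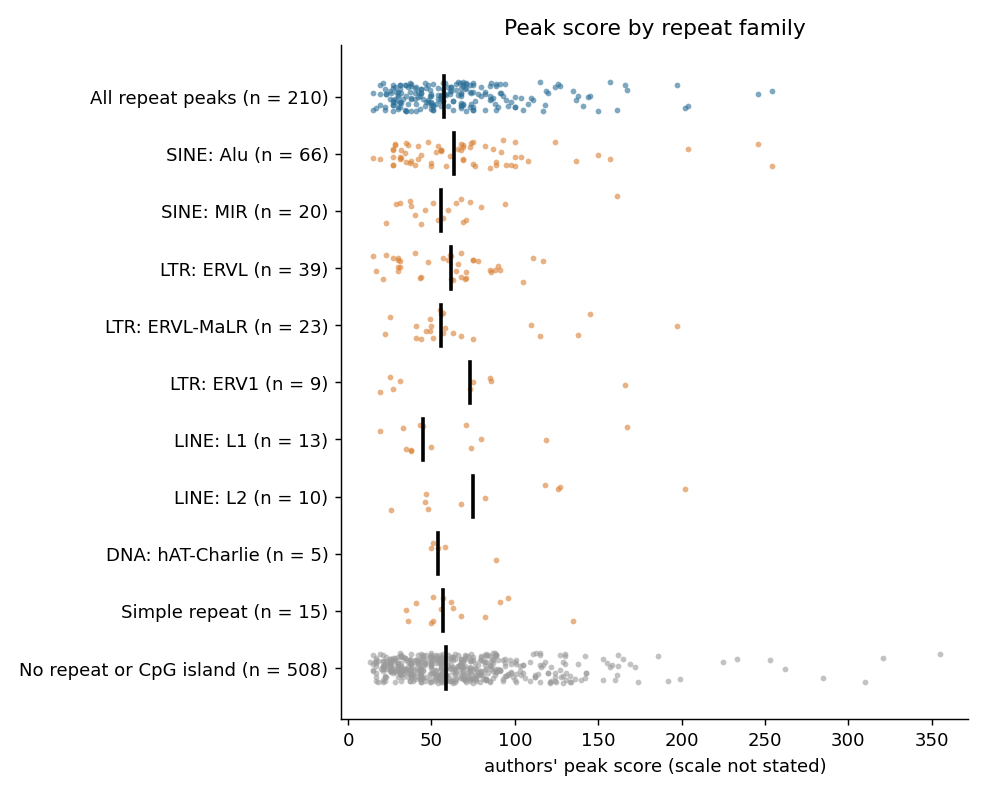
Authors' peak score (x axis, scale not stated) of single peaks (points) for all repeat peaks, for the families with at least 5 peaks, and for plain intronic and intergenic peaks, with black bars at the medians. The medians of all repeat peaks and of plain peaks are 57.5 and 59, and the family medians run from 45 in L1 to 75 in L2.

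Repeat peaks were not found next to start sites. None of the 210 repeat peaks was centred within 1 kb of a start site, while 51 of the 508 plain peaks were. All 51 were among the 309 plain peaks in introns, and 0 of the 199 plain intergenic peaks lay that close. Only the 92 intronic repeat peaks can therefore be set beside them, and of these 0 lay within 1 kb, or 0% (0 to 3.93). The annotation takes part in the lack of repeat peaks near starts, since it names no repeat at a peak of the promoter class. The comparison was therefore also made over peaks beyond 1 kb, a choice made after the values were seen. There, 457 plain peaks remained. In introns lay 92 of 210 repeat peaks, or 43.8% (37.0 to 50.8), against 56.5% (51.8 to 61.1) of these plain peaks. Of all intronic and intergenic peaks beyond 1 kb, 366 of 697 lay in introns. The background of 57.7% also counts peaks within 1 kb. Put the other way, 35.6% of intergenic peaks were on a repeat (30.5 to 41.1), against 25.1% of intronic peaks beyond 1 kb (20.8 to 29.9).

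The median distance to the nearest start site was 23702 bp for repeat peaks (17967 to 29002), against 19612 bp (18079 to 23167) for plain peaks beyond 1 kb, with overlapping intervals. Within 10 kb of a start lay 50 repeat peaks, or 23.8% (18.2 to 30.2), with a background of 37.9% and 31.3% among plain peaks beyond 1 kb. The direction differed by site. Between genes this share was 28.0% for repeat peaks (20.1 to 37.0) and 21.1% for plain peaks (15.7 to 27.4). In introns it was 18.5% (11.1 to 27.9) and 49.2% (43.5 to 54.9), where the plain peaks include those within 1 kb. These shares were not tested. Beyond 100 kb lay 22 repeat peaks, or 10.5%, with a background of 8.81%. Intronic repeat peaks had a median distance of 23685 bp (16030 to 30445), and intronic plain peaks beyond 1 kb one of 15916 bp (12302 to 19265). For intergenic peaks the medians were 23702 bp (16091 to 33702) and 29220 bp (21517 to 34157). Neither pair was tested, and the intervals overlap in both.

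**Figure D5:**
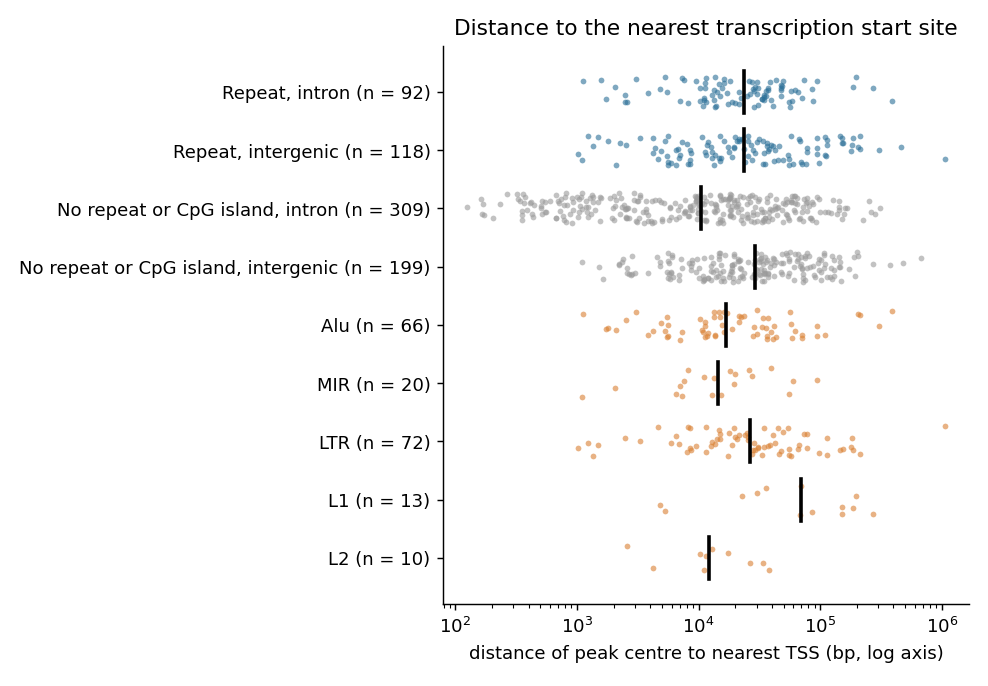
Distance in bp from the peak centre to the nearest transcription start site (x axis, log scale) of single peaks (points), for repeat and plain peaks in introns and between genes and for 5 groups of repeats, with black bars at the medians. Repeat peaks start at 1018 bp, whereas 51 plain intronic peaks lie within 1000 bp, and L1 has the largest median, 69837 bp.

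Repeat peaks were divided about evenly between the upstream side of the nearest start (111 peaks) and the downstream side (99 peaks, 47.1%, 40.2 to 54.1). The background was 62.7% downstream, and plain peaks beyond 1 kb were 63.0% downstream (58.4 to 67.5). Most intronic peaks of both kinds lay downstream. Within introns the downstream share was 71.7% for repeat peaks and 79.5% for plain peaks beyond 1 kb, and between genes it was 28.0% and 41.7%. LTR peaks had the lowest share of the 3 large classes, 37.5% (26.4 to 49.7), against 50% for SINEs and 53.8% for LINEs (33.4 to 73.4). These class shares are not split by site, and 51 of the 72 LTR peaks were intergenic, where the downstream share was low. None of these differences was tested.

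Of the 92 intronic repeat peaks, 36 lay in a first intron, or 39.1% (29.1 to 49.9). The background was 47.8% of all intronic peaks and 36.6% of those beyond 1 kb of a start. The host gene was found for 91 from the transcript of the annotation. It was also the gene of the nearest start in 56 cases and another gene in 35, as for BRSK2 and MOB2. By the deposited gene type, protein-coding genes were nearest to 156 of the 210 peaks. Genes typed as ncRNA were nearest to 48, or 22.9%, with a background of 23.0%. Genes typed as snoRNA were nearest to 2 further peaks and pseudogenes to 4. The RefSeq gene table gives another type for some of these genes, in both directions between protein-coding and non-coding. For MIR peaks the deposited ncRNA count was 0 of 20, and for LTR peaks it was 20 of 72.

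Genes of the lists were nearest to repeat peaks about as often as to other peaks. Of 404 genes in 11 lists, which cover matrix, contractile, adhesion, TGF-beta, AP-1, YAP target and retroelement silencing genes and markers of other cell types, 7 were nearest to a repeat peak. They took 7 of 210 peaks, or 3.33%, against 3.35% of plain peaks and a background of 3.45%. YAP and TEAD targets had 2 of 30 genes, MYOF and PTPN14, the latter a phosphatase gene with an AluSz6 peak of score 28 in intron 1. Crosslinking and remodelling genes had 2 of 45. They were LOXL2, a collagen crosslinking enzyme gene, with an AluSx peak of score 56 at 7239 bp upstream, and the protease inhibitor gene SERPINE2, with an MLT1H peak of score 57 at 178934 bp upstream. Matrix genes had 1 of 53, the collagen gene COL5A1, with an MLT2B1 peak of score 30 at 78199 bp upstream. The TGF-beta and BMP list had 1 of 46, SMURF2, and the endothelial list 1 of 24, VWF, with an MLT1F peak of score 63. Contractile (53 genes), adhesion (33), AP-1 and related (35), silencing (30), epithelial (30) and immune (28) genes had 0. Among the 508 plain peaks the counts were likewise low, from 0 to 3 in each list. With 210 peaks, a count of 0 allows up to 1.43% of them in a list.

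Zinc finger genes named ZNF were nearest to 5 peaks at 4 genes, or 2.38%, with a background of 2.55%. A pair of AluY peaks 70 bp apart, with scores of 104 and 32, lay in the last intron of ZNF544 on chromosome 19 (58776689 to 58776991) and was nearest to ZNF8. The others were an AluJb peak of score 73 nearest to ZNF251, an AluSq2 peak of score 38 in intron 1 of ZNF43 and a MIR peak of score 38 nearest to ZNF592. MicroRNA genes were nearest to 11 peaks at 10 genes, or 5.24%, with a background of 5.36%.

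Merging repeat peaks within 1 kb of each other left 202 places, of which 7 held more than 1 repeat peak. Besides the SORCS2, LTR76, SVA and AluY groups above, these were 2 peaks on L1PA17 at 63 bp from each other, nearest to SMIM30 (scores 80 and 35), an MLT2B4 and a TGGG repeat 73 bp apart nearest to LOC102724265 (48 and 68), and an MLT2B3 and an AluSz 301 bp apart nearest to MIR4293 (44 and 31). Any other peak of the list, on a repeat or not, lay within 1 kb of 21 repeat peaks, or 10% with a background of 10.3%, and within 10 kb of 30, or 14.3% with a background of 13.0%. Genes with a pair of distant repeat peaks were SLC5A11, a cotransporter gene, with a MIRb peak of score 80 upstream and an AluSx peak of score 95 in intron 2, NAT10 with an AluJo peak of score 36 beside its CR1 peak, and IPO5.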

How the data were processed

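Bowtie2, Picard, MACS2, deepTools and HOMER were used, per the submitters' processing notes, without versions or roles. The list is the output of HOMER's annotation of narrow peaks on hg19, with blacklisted regions taken out beforehand, per the file headers. The combining of libraries, the use of input and the treatment of reads with several matches are not stated. The score is the deposited whole number per peak. Libraries were fixed for 10 minutes and read for 51 bases at both ends, per the labels' protocols. The depth of each library is unknown, since no read counts were analysed here.

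Peaks were kept on the assembled chromosomes where the detailed annotation gave name, class and family, as deposited. Width is end minus start plus 1. Positions are printed as the authors' files give them, with distances and nearest genes from the deposited annotation. All 210 gene identifiers matched a RefSeq gene table (GRCh38.p14). It was used for names and host genes, and beside the deposited gene type where this is stated. Gene types are otherwise those of the deposited annotation. An older symbol is carried by 5 peaks and printed as deposited. Shares have exact Clopper-Pearson 95% intervals and medians order-statistic (binomial) 95% intervals, in Python 3.11.15 with SciPy 1.17.1 and pandas 2.3.3. The functions were tested on simulated data. Where a limit is given for a count of 0 without an interval, it is 3 counts.

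The members, lists and comparisons were chosen with earlier results of these data known. Named genes are those of the 10 strongest peaks, of the 4 strongest per family or repeat name with 5 or more peaks (the strongest in smaller families), of peaks within 1 kb of a start site, of genes with 2 or more peaks, of the 3 widest and 3 farthest peaks, and of listed genes (up to 3 per list). Not every gene that the rule takes is printed. The motif letters were chosen after the repeat units were seen. Peak and promoter sequences were not printed, since no genome of this build was used here and 0 peaks lay in the RefSeq promoter windows (250 bases before to 50 after a start). For the latter reason the AP-1 motif search planned for promoters was not run. A further simple repeat unit is not reported here.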

Additional observations from a re-analysis of the deposited data

How the results depend on the processing

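Merging peaks within 1 kb, keeping chromosomes 1 to 22 and X, or keeping interspersed repeats only kept every count tried within 1.5 times its value, and every share and median of repeat peaks tried inside its interval. Of 46 alternative values in all, 12 lay outside. Keeping only scores of at least 60 or at least 83 cut the counts by construction, from 210 to 102 and 51 repeat peaks, from 66 to 34 and 20 Alu peaks, from 72 to 36 and 16 LTR peaks, and from 26 to 12 and 6 LINE peaks. The median score rose with it from 57.5 to 83.5 and 110. The share within 1 kb of a start was 0% and became 11.9% within 5 kb. Limiting plain peaks to those beyond 1 kb, added after seeing the data, moved their median distance from 17685 to 19612 bp and their intronic share from 60.8% to 56.5%. No paired analysis was possible because the list holds no value per library, and for the same reason no replicate was left out.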

Other observations

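Contigs outside the assembled chromosomes held 26 repeat peaks that were not on satellites, which enter no comparison above. Alu held 10 of them, with a median score of 52.5 and a highest score of 84. L1 held 4, with a highest score of 92, ERVL held 3, with a highest score of 84, and simple repeats held 3, with a highest score of 48.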
